A study of Mus musculus with 29 samples.

Results

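The G1 cyclins, their kinases and their inhibitors were followed here as 10 genes in mouse cells with raised Myc activity. They are the D-type cyclins Ccnd1, Ccnd2 and Ccnd3, the E-type cyclins Ccne1 and Ccne2, the kinases Cdk2, Cdk4 and Cdk6, and the inhibitors Cdkn1b (p27) and Cdkn2c (p18). They were chosen by gene symbol, and all 10 were found among the 21819 genes listed for B cells and the 21675 listed for fibroblasts. All 10 passed the filter on low values in every comparison.

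RNA was sequenced from 29 libraries. Wild-type spleen B cells (n = 4) and transgenic Eµ-myc spleen B cells (n = 4) came from C57BL/6 mice 6 to 8 weeks old and were enriched on B220 beads. Eµ-myc is a Myc transgene driven by an immunoglobulin enhancer that is active in B cells. Tumour libraries (n = 3) came from cell suspensions of lymph nodes of transgenic C57BL/6 mice, pressed through a strainer and not purified, so that the cells other than tumour cells remain in them. The age of the tumour-bearing mice is not given in the sources used here. The fibroblasts were 3T9 cells, a line from embryonic day 13.5 fibroblasts of mixed strain. All of them, controls included, were c-mycflox/flox and infected in vitro with MycER, a Myc protein that is active only in the presence of 4-hydroxytamoxifen. Controls received ethanol (0 h), and the others 400 nM 4-hydroxytamoxifen for 4, 8 or 16 h (n = 4 each). Newly made RNA, labelled with 4-thiouridine (4sU) at 300 µM for 10 min, was sequenced from 1 library at 0 h and 1 at 4 h. Nothing in the labels says whether libraries of a group came from separate animals or cultures, so p-values measure the spread between these libraries, which may be technical.

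Cells commit to DNA synthesis in G1. D-type cyclins, made in answer to growth signals, bind Cdk4 or Cdk6, and E-type cyclins bind Cdk2. These complexes phosphorylate the retinoblastoma family, which releases E2F factors that switch on genes of S phase. p27 binds and blocks cyclin E with Cdk2, and can also be held by cyclin D complexes, whereas p18 belongs to the INK4 group, which binds Cdk4 and Cdk6 alone. Mature resting B cells are known for a high level of p27 and for cyclins D2 and D3. Myc binds the E-box CACGTG with its partner Max.

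Promoter sequences were available for 7 of the 10 genes, in 9 entries of 250 bases before to 50 bases after a start site (RefSeq, build GRCm38.p6). They were searched on both strands for the E-box CACGTG, whose reverse complement is the same sequence, and for the E2F motifs TTTCCCGC and TTTGGCGC (reverse complements GCGGGAAA and GCGCCAAA). No matches of different motifs overlapped. Of 32851 promoters of this length, 7.15% held CACGTG, 1.07% TTTCCCGC and 0.514% TTTGGCGC. The promoter of Cdk4 held 4 E-boxes, whose first bases lie at -172, -118, -98 and -11 from the start. Only 8 of the 32851 promoters held 4 or more. Cdk6 held 1 E-box, at -220, and 1 of the 2 entries of Cdkn2c held 1, at 35. Cdk2 held 1 TTTCCCGC, and Ccne1, Cdkn1b and both entries of Ccnd3 held none of the motifs. A match is a run of letters in this window and not a measured binding site. The promoters of Cdk4 and of its relative Cdk6 are shown because Cdk4 rose with the transgene and Cdk6 had no call, and those of Ccne1 and Cdkn1b because they are a gene that rose and a gene that fell. Each is printed 5′ to 3′ on the strand of its gene, with motif matches in capitals.
Cdk4, chr10:127063285-127063584, plus strand: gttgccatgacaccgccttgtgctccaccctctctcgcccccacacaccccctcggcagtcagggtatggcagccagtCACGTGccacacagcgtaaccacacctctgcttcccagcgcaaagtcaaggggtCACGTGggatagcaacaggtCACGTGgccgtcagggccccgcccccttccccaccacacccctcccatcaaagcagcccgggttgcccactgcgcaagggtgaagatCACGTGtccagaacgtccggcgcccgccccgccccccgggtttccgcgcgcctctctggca
Cdk6, chr5:3343643-3343942, plus strand: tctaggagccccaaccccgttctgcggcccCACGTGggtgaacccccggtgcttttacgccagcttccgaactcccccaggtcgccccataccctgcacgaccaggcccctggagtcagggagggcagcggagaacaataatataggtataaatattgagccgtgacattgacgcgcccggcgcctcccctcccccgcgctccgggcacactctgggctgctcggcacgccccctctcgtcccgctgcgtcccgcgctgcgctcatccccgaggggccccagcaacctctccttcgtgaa
Ccne1, chr7:38107441-38107740, minus strand: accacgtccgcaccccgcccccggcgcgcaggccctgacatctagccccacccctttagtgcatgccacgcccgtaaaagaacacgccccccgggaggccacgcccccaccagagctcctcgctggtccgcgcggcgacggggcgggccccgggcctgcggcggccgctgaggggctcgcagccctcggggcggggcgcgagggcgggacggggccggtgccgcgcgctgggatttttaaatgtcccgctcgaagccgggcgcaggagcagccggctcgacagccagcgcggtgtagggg
Cdkn1b, chr6:134920151-134920450, plus strand: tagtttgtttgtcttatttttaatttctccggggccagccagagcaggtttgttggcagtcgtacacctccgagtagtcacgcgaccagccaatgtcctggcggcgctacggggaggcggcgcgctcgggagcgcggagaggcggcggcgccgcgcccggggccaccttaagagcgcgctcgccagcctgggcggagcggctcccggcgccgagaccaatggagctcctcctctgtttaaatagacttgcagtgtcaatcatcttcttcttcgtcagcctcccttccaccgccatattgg

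Values are FPKM, fragments per kilobase of transcript scaled to the reads of the library, with no counts. FPKM is per length, so levels of different genes were set side by side within a library, as deposited. How well they compare between genes was not tested: Gapdh stood at 62.2 FPKM in wild-type spleens and Actb at 32816. The B cell and fibroblast files lie on different scales and are not compared with each other. Myc was at 191 to 273 FPKM in wild-type spleens, 1017 to 2408 in transgenic spleens and 1759 to 2179 in tumours. In the fibroblasts the Myc row was at 20.3 to 29.7 FPKM at 0 h and 7.92 to 14.5 at 4 h, and MycER cannot be told apart in it. B cell markers (7 genes) summed to 36858 to 41110 FPKM in wild-type and 23458 to 35604 in transgenic spleens. They summed to 17948 and 19723 FPKM in tumour libraries 1 and 2, and to 1354 in the tumour library labelled 3, against its label of B cells. In that library Ebf1, a B cell transcription factor, was at 18.8 FPKM, while Cd4 was at 9468 and Siglech, a marker of plasmacytoid dendritic cells, at 2655. It is kept as labelled, and the tumour results of the 10 genes against wild type are given with and without it. In the 16 fibroblast libraries of total RNA, 7 fibroblast markers had a sum of 138 to 208 FPKM, and the 7 B cell markers one of 3.52 to 8.04.

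The fibroblast values stop at a ceiling. The spacing of the lowest values gives an estimated denominator of 16.5 to 17.3 M reads for the 16 total RNA libraries, from which FPKM can be turned into reads per base of exon. The 99.9th percentile lay at 1.90 to 2.18 reads per base in all 16, and Actb, Gapdh and Eef1a1 lay at 1.67 to 2.53. In the 11 B cell libraries the same percentile ranged from 8.94 to 24.7. The highest gene of each total RNA fibroblast library lay at 2.32 to 3.34 reads per base. Cdk4 lay at 1.43 to 2.18 reads per base in the fibroblasts, so a rise of Cdk4 there may be held down or not seen. Cdk6, Ccne1, Ccne2 and Ccnd1 lay at 0.547 to 1.17 and may be held down in part, and the other 5 genes lay at 0.089 to 0.576. Whether repeated reads were removed is not given in the sources used here.

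**Figure D1:**
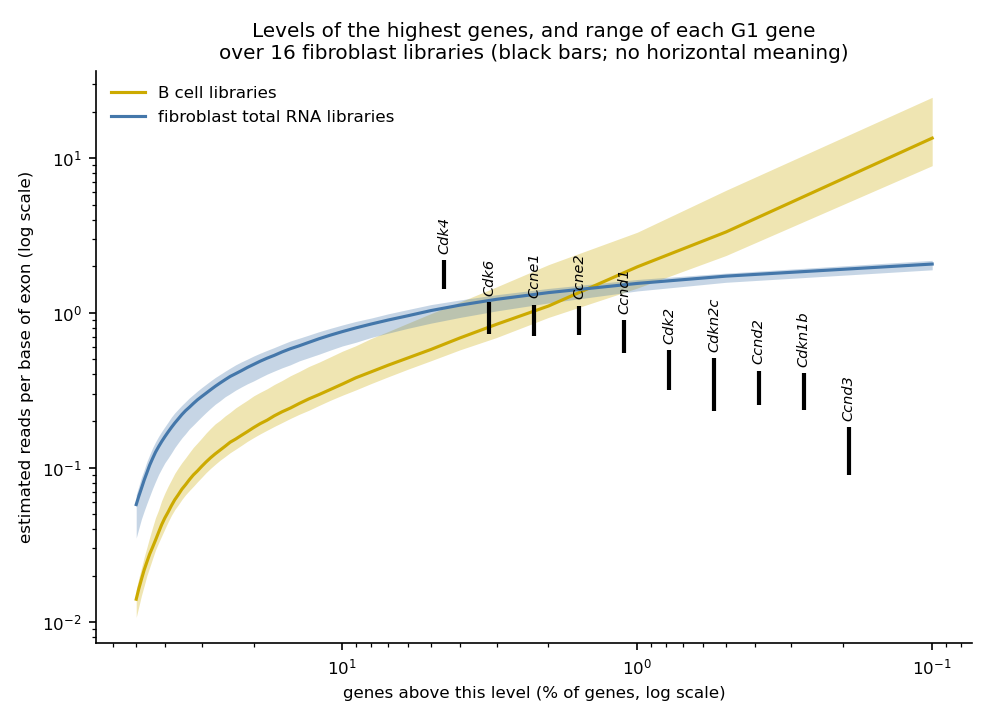
Estimated reads per base of exon (vertical, log scale) against the percentage of genes above that level (horizontal, log scale), as the median and range over 11 B cell and 16 total RNA fibroblast libraries; black bars give each gene's range over the 16 fibroblast libraries, and their horizontal place has no meaning. The fibroblast curve flattens near 2 reads per base, where Cdk4 lies, while the B cell curve keeps rising.

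In wild-type spleen B cells the inhibitor Cdkn1b stood highest of the 10 genes at 624 ± 71.9 FPKM (SD, n = 4), followed by Cdk4 at 547 ± 43.9 and Ccnd2 at 382 ± 69.5. Cdkn1b and Cdk4 overlapped in their ranges, and Ccnd2 lay below both. Cdk2 (228 ± 22.7), Cdk6 (200 ± 47.2) and Ccnd3 (167 ± 7.82) came next and each lay within the spread of its neighbour. Ccne1 stood at 112 ± 10.4, Cdkn2c at 80.1 ± 24.1, Ccnd1 at 51.8 ± 13.6 and Ccne2 at 26.0 ± 5.58 FPKM, and of these 4 only Ccne2 overlapped no neighbour. By FPKM as deposited, the D-type cyclin transcripts of resting spleen B cells were mostly Ccnd2. It held 63.2% ± 4.75 of their summed FPKM, against 28.1% ± 2.90 for Ccnd3 and 8.77% ± 2.84 for Ccnd1.

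The transgene was compared with wild type in spleen B cells to see which of the 10 genes change with Myc in mice 6 to 8 weeks old. Of the 10, 6 rose and none fell: Ccnd1, Ccne1, Ccne2, Cdk2, Cdk4 and Cdkn2c (limma, Benjamini-Hochberg over 14021 genes). Over all genes tested, 15.7% rose and 12.2% fell. Both E-type cyclins and the kinases Cdk2 and Cdk4 were thus among the genes that rose, and so was 1 of the 2 inhibitors. The median change of the 3 D-type cyclins was 0.53 on the log2 scale, of the 2 E-type cyclins 1.73 and of the 3 kinases 0.74, against -0.05 over all genes.

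Ccnd1, the D-type cyclin best known outside the blood lineages, was at 36.9, 62.6, 43.7 and 64.0 FPKM in wild-type spleens and 123, 139, 324 and 203 in transgenic ones. Every transgenic library lay above every wild-type one, as was so in 1 direction or the other for 31.6% of all genes, a log2 fold change of 1.85 (SE 0.31, adjusted p = 0.00426). Ccnd2 was at 407, 452, 382 and 287 FPKM in wild type and 354, 311, 177 and 94.4 in transgenic spleens. The groups overlapped, and its log2 difference of -0.86 (95% interval -1.68 to -0.04) had an adjusted p of 0.104. Ccnd3 was at 160 to 179 FPKM in wild type and at 160, 173, 402 and 309 in transgenic spleens (log2 0.53, adjusted p = 0.159). Bysl, which shares 361 bases of exon with Ccnd3 on the opposite strand of the genome (GRCm38), rose in transgenic spleens (0.75, adjusted p = 0.0133) and in tumours (0.63, adjusted p = 0.0243), and its part in the values of Ccnd3 was not tested. Transgenic libraries 4 and 5, in the order 2, 3, 4 and 5 used here, stood apart from 2 and 3 with less Ccnd2 and more Ccnd3.

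Ccne2 had the largest log2 fold change of the 10 genes, from 32.0, 22.1, 20.4 and 29.3 to 76.2, 102, 176 and 182 FPKM (log2 2.28, SE 0.29, adjusted p = 0.00215). Ccne1 went from 114, 97.1, 121 and 115 to 169, 192, 375 and 332 FPKM (log2 1.17, adjusted p = 0.00952). Neither E-type cyclin overlapped between the groups, and the share of Ccne1 in their sum was 81.2% ± 3.22 in wild type and 66.7% ± 2.10 in transgenic spleens.

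Cdk4, the partner of D-type cyclins, was at 495, 552, 539 and 601 FPKM in wild type and 945, 1178, 2013 and 1976 in transgenic spleens, with no overlap (log2 1.41, SE 0.24, adjusted p = 0.00476). Its relative Cdk6 was at 130 to 227 FPKM and at 153 to 373, and the groups overlapped (log2 0.22, 95% interval -0.40 to 0.83, adjusted p = 0.580). Cdk2, the partner of cyclin E, was at 243, 198, 223 and 248 against 266, 319, 518 and 472 FPKM (log2 0.74, adjusted p = 0.0285). Its call was lost without wild-type library 1, 3 or 4 or transgenic library 4 or 5 (adjusted p = 0.0588 to 0.0753).

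The inhibitors did not move together. Cdkn2c rose from 83.0, 108, 49.2 and 80.2 to 110, 147, 254 and 276 FPKM (log2 1.25, SE 0.32, adjusted p = 0.0202), a call lost without wild-type library 4 or transgenic library 4 or 5 (adjusted p = 0.0528 to 0.0594). Cdkn1b was at 652, 648, 518 and 678 FPKM in wild type and 425, 486, 398 and 564 in transgenic spleens. The groups overlapped through wild-type library 4, and the log2 difference of -0.42 had an adjusted p of 0.0635. Cdkn1b passed the threshold without transgenic library 5 (adjusted p = 0.0418), and so did Ccnd2 (0.0348) and Ccnd3 (0.0396) without transgenic library 2. The share of Cdkn1b in the sum of both inhibitors was 88.8% ± 2.33 in wild type and 71.1% ± 8.53 in transgenic spleens.

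Spleen libraries also differed in Rpph1, a small noncoding RNA: 2 of 4 in each group were over 500000 FPKM (wild-type 1 and 3, transgenic 2 and 3) and 2 under. Within the libraries over that level, Ccnd1, Ccne1, Ccne2 and Cdk4 rose, by log2 1.43, 0.77, 1.71 and 1.01, while Cdk2 (0.40, adjusted p = 0.140) and Cdkn2c (0.42, adjusted p = 0.217) did not pass. In that fit 6.39% of all genes rose and 3.65% fell. Within the libraries under it, 7 genes rose, Ccnd3 among them (1.11, adjusted p = 0.0145), and Ccnd2 fell (-1.35, adjusted p = 0.0304), beside 13.7% of all genes that rose and 9.63% that fell. The log2 difference was larger under that level than over it for Ccnd1 (2.27), Ccne1 (1.57), Ccne2 (2.85), Cdk4 (1.81) and Cdkn2c (2.07), and smaller in size for Cdkn1b (-0.32 against -0.52, neither called). These fits hold 2 libraries per group, and the difference between the 2 sets was not tested.

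**Figure D2:**
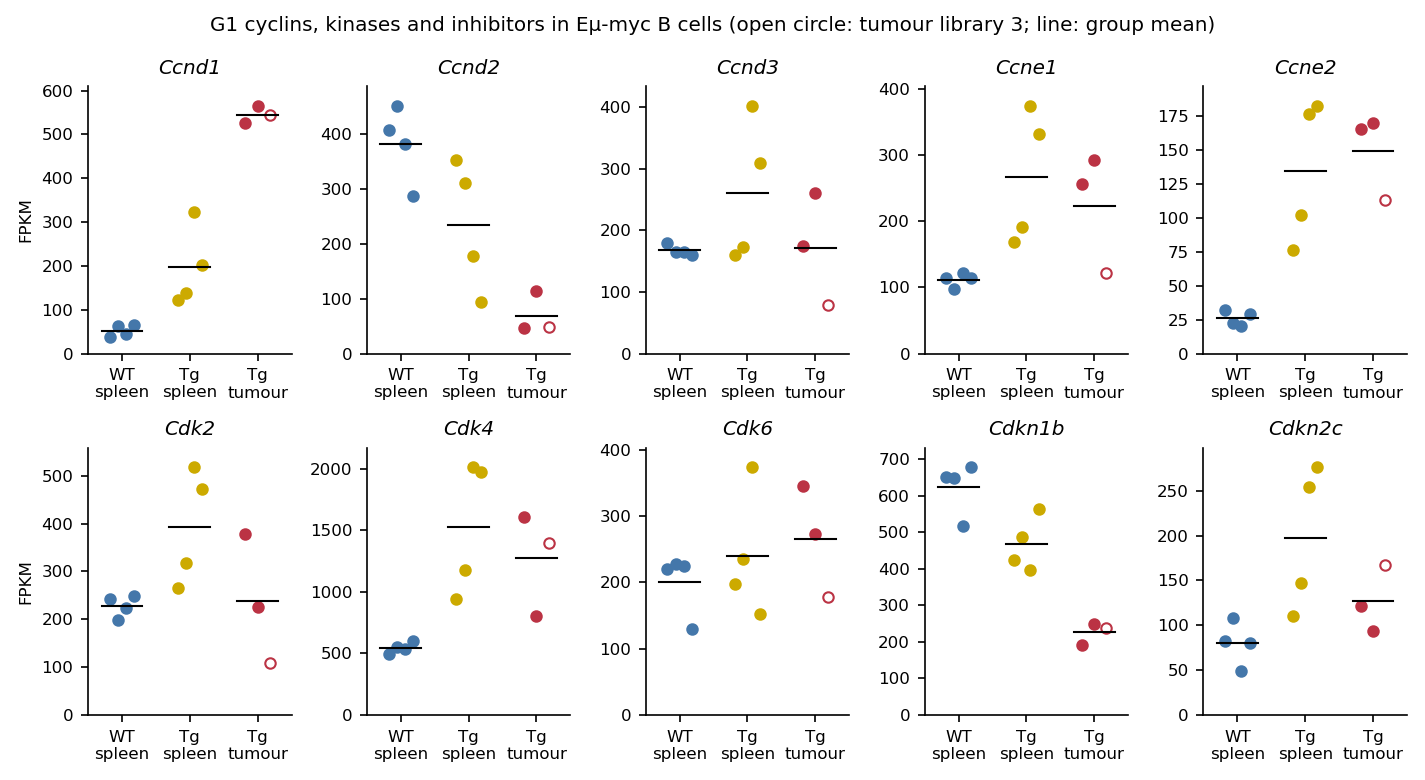
FPKM of each gene (linear axes from 0) in 4 wild-type spleen, 4 transgenic spleen and 3 tumour libraries; points are libraries, lines are group means, and the open circle is tumour library 3. Ccnd1 rises from group to group without overlap, from at most 64.0 FPKM in wild type to at least 527 in tumours, while Cdkn1b is at 518 to 678 FPKM in wild type and at most 248.5 in tumours.

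In tumours, 4 of the 10 genes rose against wild-type spleen (Ccnd1, Ccne1, Ccne2 and Cdk4) and 2 fell (Ccnd2 and Cdkn1b). Over the 14758 genes tested, 20.3% rose and 17.7% fell. Without tumour library 3 the counts were again 4 and 2, for the same 6 genes, beside 22.9% and 21.1% of all genes. None of the 6 overlapped wild type, and neither did 45.4% of all genes. The tumour and spleen groups differ in tissue and purification as well as in the disease, and may differ in age, which is not given for tumours. These cannot be told apart. In bulk RNA, fewer cells of a type and less RNA per cell cannot be told apart either.

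Ccnd1 was at 527, 565 and 544 FPKM in the 3 tumours, above every wild-type and every transgenic spleen library. The log2 fold change against wild type was 3.42 (SE 0.22, adjusted p = 9.05e-05), and 3.42 without tumour library 3. Ccnd2 was at 46.4, 114 and 47.5 FPKM, all below the lowest wild-type value of 287 (log2 -2.57, SE 0.33, adjusted p = 0.000917, and -2.36 without library 3). Ccnd3 was at 174, 260 and 79.0 FPKM and overlapped wild type (log2 -0.13, adjusted p = 0.802), and without library 3 the sign turned (0.35, adjusted p = 0.143). Ccnd1 thus made up 70.6% ± 10.5 of the D-type cyclin FPKM in tumours and Ccnd2 8.47% ± 3.19 (65.3% and 9.16% without library 3). The summed level was 601 ± 70.2 FPKM in wild type, 692 ± 141 in transgenic spleens and 786 ± 139 in tumours, and ranges of neighbouring groups overlapped.

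**Figure D3:**
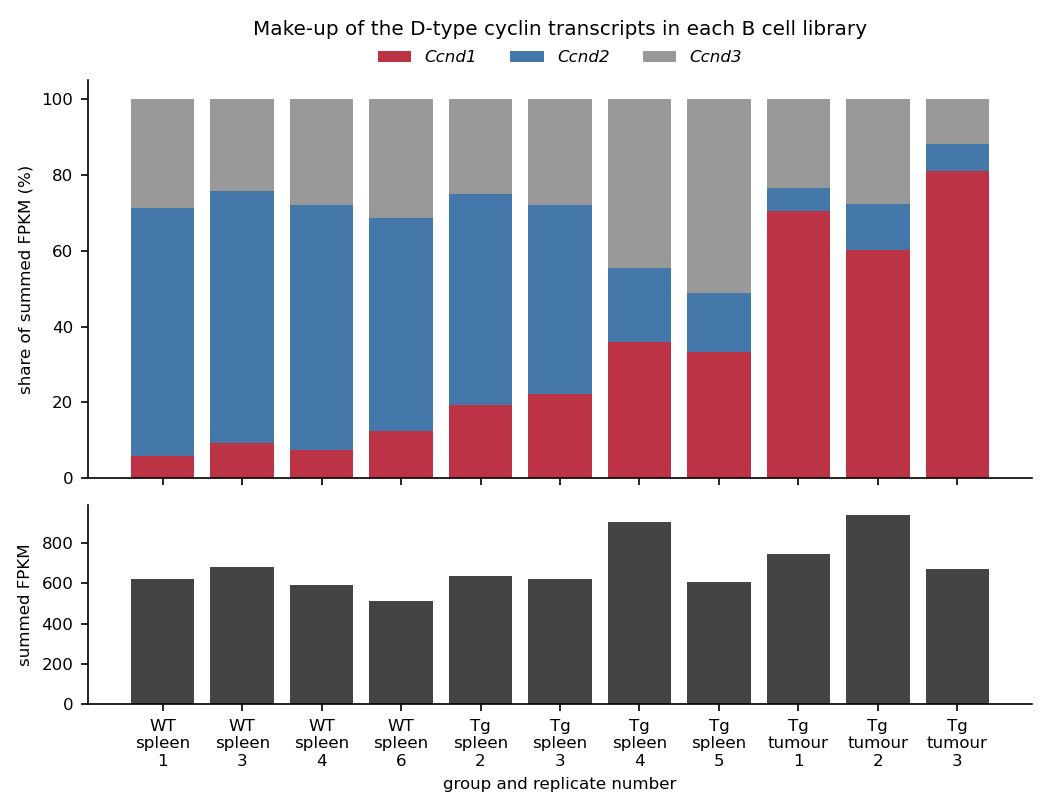
Share of Ccnd1, Ccnd2 and Ccnd3 in their summed FPKM (top, percent) and that sum (bottom, FPKM) in each of the 11 B cell libraries. Ccnd2 holds 56.1% to 66.5% in wild type, and Ccnd1 holds 60.2% to 81.1% in tumours.

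Markers of other cells also differed between these groups. In tumours 5 of 5 NK cell markers and 4 of 6 macrophage markers were called lower, and 1 macrophage, 2 of 7 T cell and 1 of 4 plasmacytoid dendritic cell markers higher. With tumour library 3 left out, 4 of 5 NK cell, 5 of 6 macrophage and 2 of 4 plasmacytoid dendritic cell markers were called lower. The counts called higher among these were unchanged. In transgenic spleens 3 of 7 B cell, 3 of 5 NK cell, 3 of 4 plasmacytoid dendritic cell and 1 of 7 T cell markers were called lower, and none of these higher. Over all genes, 15.7% rose and 12.2% fell in transgenic spleens. In tumours 20.3% rose and 17.7% fell (22.9% and 21.1% without tumour library 3). The T cell counts and the 1 plasmacytoid dendritic cell marker called higher lie near these shares. Of 4 endothelium markers, 1 was called higher and 1 lower in tumours (3 and 1 without tumour library 3). In transgenic spleens 1 of the 3 tested was called lower. The 7 fibroblast markers, of which all were called higher, summed to 451, 695 and 762 FPKM in tumours 1, 2 and 3 and to 21.2 to 35.3 in wild-type spleens, with Dcn at 102 to 123 FPKM in tumours. The 5 exocrine gland markers summed to 2488 to 11147 FPKM in tumours and to 6.10 to 63.0 in wild type. None of these markers was at 0 in all tumours. In transgenic spleens, where Ccnd1 had also risen, the fibroblast markers summed to 18.7 to 32.7 FPKM, 0 of the 4 tested were called, and the exocrine markers summed to 1.00 to 9.60, with 2 of 4 called lower. Their part in the tumour value of Ccnd1 was not tested. Ccnd1 spanned 527 to 565 FPKM over the 3 tumours, while the summed B cell markers spanned 1354 to 19723. Of the 7 B cell markers, 2 were called lower than in wild type, and 5 without tumour library 3. On the genome (GRCm38) Ccnd1 also shares 1100 bases of exon with LTO1 on the opposite strand, and use of strand in counting is not given in the sources used here. LTO1, listed as Oraov1, was at 113 to 124 FPKM in wild type and 86.6 to 99.7 in tumours (log2 -0.38, adjusted p = 0.0595).

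Ccne2 was at 166, 169 and 113 FPKM in tumours, all above wild type (log2 2.50, SE 0.25, adjusted p = 0.000307, and 2.69 without library 3). Ccne1 was at 256, 293 and 122, of which library 3 lay just above the highest wild-type value (log2 0.90, adjusted p = 0.0404). That call for Ccne1 was lost without any 1 of wild-type libraries 1, 3, 4 and 6 or tumour libraries 1 and 2 (adjusted p = 0.0741 to 0.127), and it was firmer without tumour library 3 (log2 1.29, adjusted p = 0.000336). Ccne2 shares 609 bases of exon with Ints8 on the opposite strand, which stood at 199 to 243 FPKM in wild type and 177 to 223 in tumours.

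Cdk4 was at 1611, 807 and 1399 FPKM in tumours, above every wild-type library (log2 1.16, SE 0.24, adjusted p = 0.00740, and 1.06 without library 3). Tspan31, which shares 641 bases of exon with Cdk4 on the opposite strand, was at 204, 61.2 and 565 FPKM in the same tumours and at 177 to 264 in wild type. Tumour 2 was lowest for both genes, while Cdk4 was highest in tumour 1 and Tspan31 in tumour 3. The part of Tspan31 in the values of Cdk4 was not tested. Cdk6 was at 345, 274 and 178 FPKM (log2 0.39, adjusted p = 0.304) and Cdk2 at 379, 227 and 108 (log2 -0.12, adjusted p = 0.831), and both overlapped wild type. Without library 3, Cdk2 turned to a log2 of 0.36 (adjusted p = 0.192) and Cdk6 stood at 0.65 (adjusted p = 0.0616).

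Cdkn1b was at 191, 248.5 and 239 FPKM in tumours, all below the lowest wild-type value of 518 (log2 -1.46, SE 0.16, adjusted p = 0.000426, and -1.51 without library 3). Cdkn2c was at 122, 93.4 and 167 FPKM and overlapped wild type (log2 0.68, 95% interval -0.01 to 1.37, adjusted p = 0.108, and 0.47 without library 3). The summed level of both inhibitors was 704 FPKM in wild type, 665 in transgenic spleens and 354 in tumours.

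Tumours were also set against transgenic spleens, which carry the same transgene. Of the 10 genes, Ccnd1 rose (log2 1.57, SE 0.32, adjusted p = 0.0290) and Cdkn1b fell (log2 -1.04, SE 0.19, adjusted p = 0.0207), with no overlap between groups (22.4% of all genes), while 3.56% of 14692 genes rose and 2.39% fell (523 and 351 genes, or 364 and 369 after quantile normalization). Both held without tumour library 3 (adjusted p = 0.0469 and 0.0315), when 3.37% of all genes rose and 2.76% fell. The call for Ccnd1 was lost without transgenic library 2, 3 or 5 or tumour library 1 or 2 (adjusted p = 0.0635 to 0.0910), and that for Cdkn1b without transgenic library 3 or 5 or tumour library 1 (0.0513 to 0.0789). Ccnd2 differed by -1.71 (95% interval -2.86 to -0.55, adjusted p = 0.0894), and tumour 2 at 114 FPKM overlapped transgenic library 5 at 94.4. The other 7 genes had adjusted p-values from 0.273 (Cdk2, log2 -0.85) to 0.802 (Cdk6, log2 0.17). The 3 B cell comparisons share libraries, so their calls are not independent of each other.

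Genes around the G1 kinases were taken from lists for other CDK inhibitors, CDK activation, turnover of G1 cyclins and p27, pocket proteins with E2F, cyclins of S and M phase, and FoxO factors. All 5 genes for cyclins and the kinase of S and M phase rose in both transgenic groups, with a median log2 of 2.67 in spleen and 2.79 in tumours (3.03 without tumour library 3). Over all genes 15.7% rose and 12.2% fell in spleen, and 20.3% rose and 17.7% fell in tumours. Cdk1, the kinase of mitosis, went from 38.1 FPKM in wild type to 285 in transgenic spleens (adjusted p = 0.00286), and Ccnf (log2 2.88) and Ccnb2 (2.48) had the smallest adjusted p in tumours. Of 13 pocket protein and E2F genes, 8 rose and 2 fell in transgenic spleens (median 0.63), and 5 rose and 2 fell in tumours (median 0.44, and 9 and 2 with a median of 0.96 without tumour library 3). The 2 that fell in both, a share near that of all genes, were Rb1 and Rbl2, pocket proteins that hold E2F back. The other pocket protein, Rbl1, rose by 0.96 in tumours without tumour library 3 (adjusted p = 0.00120). Tfdp1, the partner of E2F, rose by 2.27 and 2.86. All 3 FoxO factors, which are known activators of Cdkn1b, fell in both groups. Foxo1 fell by 1.03 in spleen (adjusted p = 0.0140) and by 1.89 in tumours (adjusted p = 0.0378), or by 1.06 without tumour library 3 (adjusted p = 0.00682).

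Among 11 genes for turnover of G1 cyclins and p27, 3 rose in transgenic spleens, and 4 rose and 2 fell in tumours (medians 0.14 and -0.05). The 2 that fell are a share near that of all genes. Skp2, which marks p27 for destruction, rose by 1.15 and 1.49, and its cofactor Cks1b by 2.48 and 2.72. Of 8 genes for CDK activation, 5 rose in spleen and 4 in tumours, none fell, and the phosphatase Cdc25a rose in both by 1.40 and 1.58. Of 5 other CDK inhibitors, 3 rose in spleen and 2 in tumours. Cdkn2a, which encodes p16 and p19Arf, went from 1.78 to 17.1 FPKM in spleen, and Cdkn2b (p15) from 2.63 FPKM in wild-type spleens to 136 in tumours (log2 5.61, adjusted p = 0.000972, and 6.20 without tumour library 3). For the lists around the G1 kinases other than pocket proteins and E2F, the counts in tumours were the same without that library. Against transgenic spleens, Cdkn2b was the only gene of these 6 lists called in tumours (log2 3.67, adjusted p = 0.00922, and 4.27 without tumour library 3). Neither list sizes nor medians were tested against other genes, for which the medians were -0.05 and 0.05.

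Genes with the most similar course over the 11 B cell libraries were sought among 11099 genes by the Pearson correlation of log2 values, as a description. For Ccnd1 they were Rad51l1 (0.989) and Ankle1 (0.988), for Ccnd2 Sesn3 (0.988) and Cyp2r1 (0.971), and for Ccnd3 Mrvi1 (0.943) and Smarcd2 (0.942). Cdk4 ran closest to Nop16 (0.993) and Pa2g4 (0.991), and Cdkn1b to Tes (0.970) and Faim3 (0.968). The libraries fall into 3 groups and share their scaling, which enters every such value. Over the 16 fibroblast libraries the closest to Cdkn1b were Rrm2 (0.965) and Rbbp8 (0.955). For Cdk4, which lies near the ceiling, nearest genes are not given. For Ccnd1 they were Slc20a1 (0.968) and Atxn7l3b (0.966), for Ccnd2 Shprh (0.917) and Slc30a1 (0.910), and for Ccnd3 Pcdhga1 (0.983) and Taf1a (0.982).

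In fibroblasts, MycER was switched on for 4, 8 and 16 h to follow the same genes after a short rise of Myc activity. None of the 10 was called at 4 or 8 h, and at 16 h only Cdkn2c was called, which fell. All genes tested numbered 12934, of which 1.9% rose and 2.88% fell at 4 h, 1.21% and 0.982% at 8 h, and 1.76% and 7.75% at 16 h. With the replicate number as a block, calls over all genes went from 618 to 1105 at 4 h and from 1230 to 2071 at 16 h, and the calls among the 10 were as without it at those times. The 3 comparisons share the 4 libraries at 0 h. Scaling matters in these files: the median of all genes at 16 h was -0.14 as deposited and 0.05 after median ratio scaling. The higher and lower calls over all genes numbered 246 and 372 at 4 h and 228 and 1002 at 16 h as deposited, and 737 and 712 at 4 h and 977 and 937 at 16 h after that scaling.

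Cdkn2c was at 24.0, 29.9, 24.1 and 30.6 FPKM at 0 h, 17.6, 23.1, 24.4 and 15.1 at 4 h, 19.4, 16.9, 19.5 and 14.3 at 8 h, and 19.3, 13.9, 17.7 and 16.6 at 16 h. The ranges at 8 and 16 h lay wholly below that at 0 h, and 12.5%, 13% and 13.8% of all genes had no overlap with 0 h at 4, 8 and 16 h. Its log2 differences from 0 h were -0.45 (adjusted p = 0.147), -0.62 (0.0519) and -0.67 (SE 0.16, adjusted p = 0.0133). The call at 16 h was lost without 0 h library 2 or 16 h library 2 (adjusted p = 0.0511 and 0.0559). At 8 h it passed after median ratio scaling (-0.52, adjusted p = 0.0113) and quantile normalization (-0.57, adjusted p = 0.00343), and with the replicate number as a block (-0.62, adjusted p = 0.0165). It also passed at 8 h with a pseudocount of 1, with array weights and in a fit of those 2 groups alone. At 4 h it passed after quantile normalization (-0.40, adjusted p = 0.0310). Cdkn1b was at 19.4, 23.1, 20.0 and 24.3 FPKM at 0 h and 21.5, 14.0, 20.9 and 18.1 at 16 h, and the ranges overlapped (log2 -0.23, adjusted p = 0.402). Cdkn1b made up 44.5% ± 0.70 of the 2 inhibitors at 0 h and 52.3% ± 1.65 at 16 h.

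Ccne1 was at 51.9, 48.5, 44.1 and 42.5 FPKM at 0 h, 53.1, 55.6, 63.4 and 64.4 at 4 h, and 53.1, 67.9, 59.2 and 67.0 at 8 h. The 4 and 8 h ranges lay above that at 0 h, but the log2 differences of 0.34 (adjusted p = 0.120) and 0.40 (0.0857) did not pass, nor did that of 0.25 at 16 h (0.211). After quantile normalization Ccne1 passed at 4 h (0.36, adjusted p = 0.0181), and after median ratio scaling Ccne1 passed at 8 h (0.50, adjusted p = 0.0272) and 16 h (0.45, adjusted p = 0.0314). Ccne1 also passed at 8 h with quantile normalization and with array weights, and at 16 h with quantile normalization. Ccne2 was at 44.7 to 51.7 FPKM at 0 h and 52.1 to 66.3 at 8 h (log2 0.26, adjusted p = 0.348, and 0.0112 with array weights). At these levels the ceiling may hold both cyclins down.

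Ccnd2 was at 15.1, 17.0, 16.3 and 22.6 FPKM at 0 h and 25.0, 22.8, 21.8 and 20.0 at 16 h, with overlap through 0 h library 4. Its log2 differences were 0.30, 0.37 and 0.34 at 4, 8 and 16 h (adjusted p = 0.297, 0.244 and 0.151), and at 16 h Ccnd2 passed after median ratio scaling (0.54, adjusted p = 0.0271). At 16 h Ccnd2 also passed with quantile normalization, with array weights and without libraries numbered 4. With array weights it passed at 4 h (adjusted p = 0.0141) and 8 h (0.0169) too. Ccnd1 held 64.3% ± 0.72 of the summed FPKM of the family at 0 h, though the ceiling may hold Ccnd1 down in part. Ccnd1 went from 44.4 ± 5.17 to 38.9 ± 5.96, 44.0 ± 4.46 and 43.6 ± 8.54 FPKM. Its log2 differences of -0.19, -0.01 and -0.04 had adjusted p-values of 0.592 to 0.987. Ccnd3 was the lowest of the 10 genes, at 5.34 to 7.92 FPKM at 0 h (log2 0.13 to 0.15 later, adjusted p = 0.748 to 0.843).

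Cdk2 was at 28.6, 34.4, 27.6 and 27.5 FPKM at 0 h, 21.2, 22.6, 22.8 and 19.2 at 8 h, and 24.1, 20.4, 21.2 and 26.0 at 16 h. Both later ranges lay below that at 0 h, and the log2 differences of -0.45 and -0.36 had adjusted p-values of 0.0873 and 0.0992. Cdk2 passed at 8 h after quantile normalization (-0.41, adjusted p = 0.0267) and in a fit of those 2 groups alone (0.0484), and at 4, 8 and 16 h with array weights (0.0488, 0.00356 and 0.0233). Cdk6 was at 44.3 to 52.1 FPKM at 0 h and 43.3 to 69.0 at 16 h (log2 0.14, adjusted p = 0.614). At 8 h Cdk6 passed with array weights alone (adjusted p = 0.00620). Cdk4 stayed near the ceiling, with 108 ± 9.87 FPKM at 0 h and 109 ± 20.5 at 16 h, so its difference of -0.01 cannot be read as a lack of change.

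**Figure D4:**
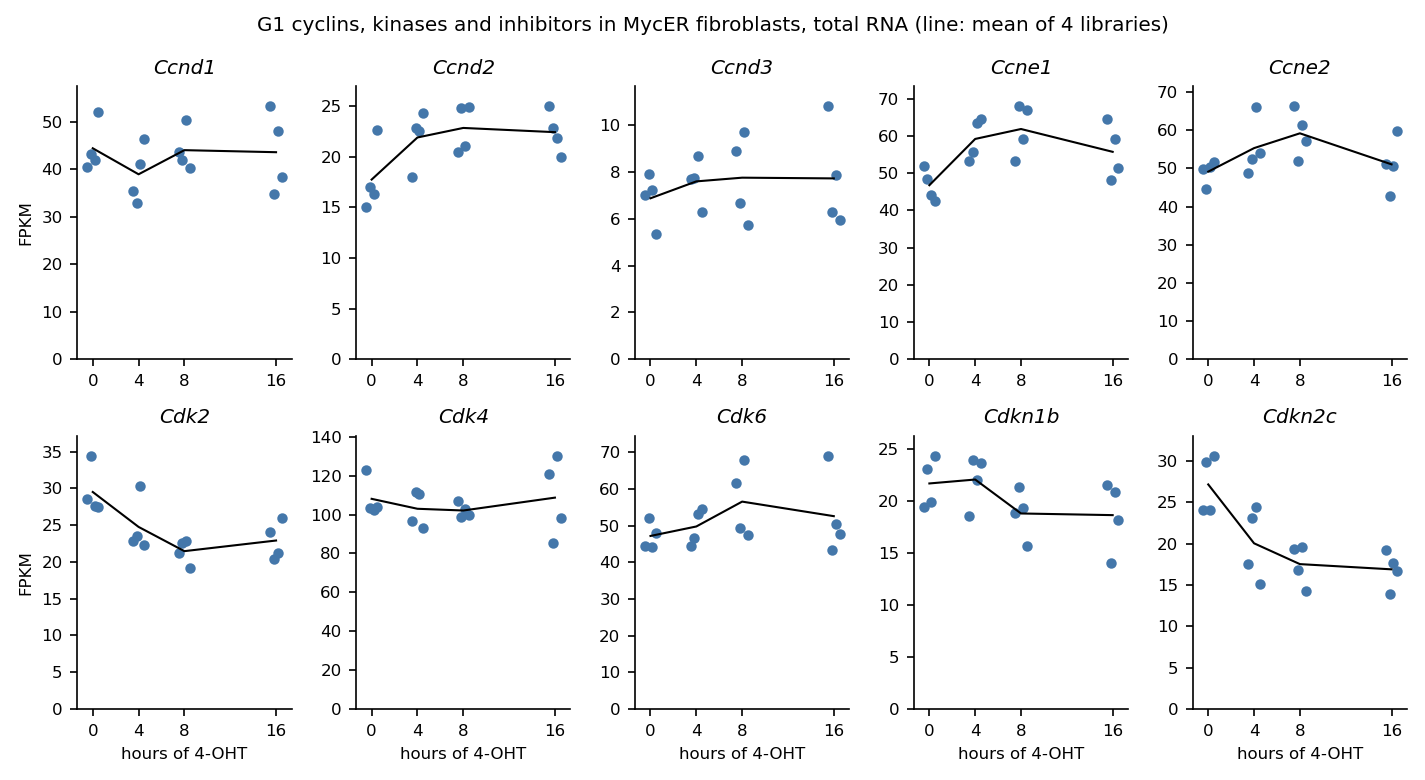
FPKM of each gene (linear axes from 0) against hours of 4-hydroxytamoxifen (4-OHT) in 16 total RNA fibroblast libraries; points are libraries and lines join the means of 4. Cdkn2c falls from a mean of 27.2 to 16.9 FPKM, and Cdk4 lies near the ceiling of the files throughout.

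From 4 h to 16 h none of the 10 genes was called, and none of all 12934 (0% higher, 0% lower, limma, 218 at an unadjusted p under 0.05). In newly made RNA, with 1 library per time and no test, none of the 10 changed by 2-fold from 0 to 4 h, while 1.19% of 12375 genes were higher and 0.703% lower by that much. Cdkn2c showed the largest of the 10 differences, from 6.27 to 3.55 FPKM (log2 -0.74), which lay at percentile 1.92 of the genes. Ccnd2 went from 22.1 to 34.2 FPKM (0.62), Ccne1 from 10.2 to 14.9 (0.53) and Cdk2 from 14.1 to 10.6 (-0.39). These 4 genes had the same signs in total RNA at 4 h, and so had Ccnd3, Ccne2 and Cdk6, while Ccnd1, Cdk4 and Cdkn1b had the opposite sign. Ccnd1 (29.0 and 31.3 FPKM), Ccnd3 (10.6 and 12.4), Ccne2 (17.7 and 21.3), Cdk6 (20.3 and 22.9) and Cdkn1b (8.84 and 8.34) differed by less, and Cdk4 (42.7 and 48.9) stood at 1.17 reads per base in both libraries.

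Of the lists around the G1 kinases, that of other CDK inhibitors had the most calls in fibroblasts. At 16 h, when 7.75% of all genes fell, 3 of 4 other CDK inhibitors tested fell: Cdkn2d (p19), from 12.6 to 6.09 FPKM (log2 -1.02, adjusted p = 0.0136), Cdkn1a (p21), from 2.37 to 0.491 (adjusted p = 0.0171), and Cdkn2b, from 47.2 to 32.0 (adjusted p = 0.0392). Their median was -0.80, against -0.14 over all genes. The 16 h level of Cdkn1a lay below the filter of 1 FPKM and near the added 0.5. Results of these lists under other scalings are not given. Cdkn2d was also called at 8 h (log2 -1.05, adjusted p = 0.0289). E2f2 rose and Rbl1 fell at 4 h, and Rbl1 (log2 -0.63), Cdc25c (-0.67) and Ccnb2 (-0.32) fell at 16 h. No gene for turnover of G1 cyclins and p27 and no FoxO factor was called at any time. Cdkn2c and Cdkn2b were thus called higher in transgenic spleens and lower in fibroblasts at 16 h. That difference between the cell types was not tested, since the files are on different scales.

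**Figure D5:**
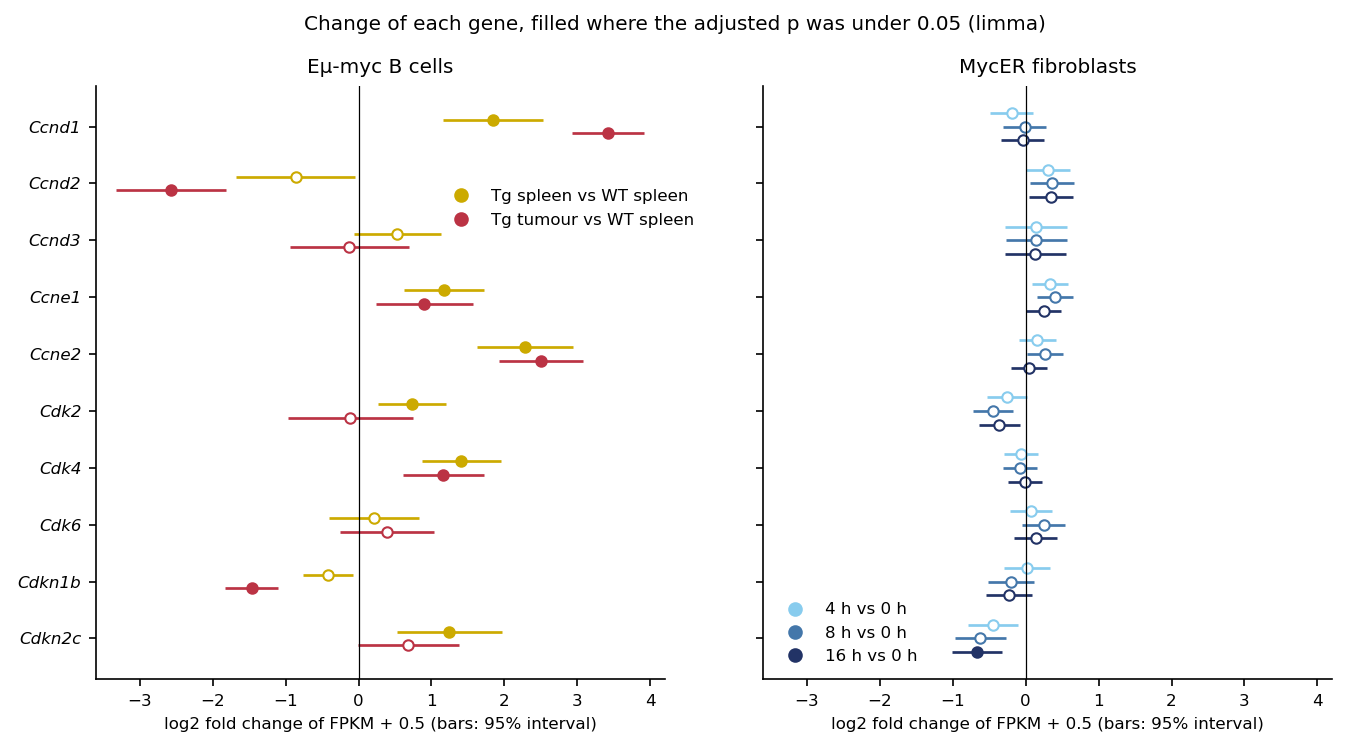
Log2 fold change of FPKM + 0.5 (horizontal, with 95% intervals) of each gene in transgenic spleens and tumours against wild-type spleens (left) and in fibroblasts at 4, 8 and 16 h against 0 h (right); filled points have an adjusted p under 0.05. In B cells the range is from -2.57 (Ccnd2 in tumours) to 3.42 (Ccnd1 in tumours), and in fibroblasts from -0.67 to 0.40. In the fibroblasts Cdk4 lies near the ceiling, and Cdk6, Ccne1, Ccne2 and Ccnd1 may be held down in part.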

How the data were processed

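Gene-level FPKM values were used as deposited, 1 file per library. Per the submitters' processing notes, the authors made these FPKM with TopHat2 2.0.8, SAMtools and HTSeq 0.5.3p9 on build mm9. Annotation, use of strand and removal of repeated reads are not given in the sources used here. The 10 genes, the other gene lists and the marker lists were chosen with earlier results of these data known.

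Differences were tested with limma 3.58.1 (R 4.3.3, trend and robust variance) on log2(FPKM + 0.5), so fold changes of low genes are understated. A gene was tested if it reached 1 FPKM in a number of libraries equal to the size of the smaller group. B cell comparisons were fitted on their own 2 groups and the 16 fibroblast libraries of total RNA in 1 fit, and p-values were adjusted by Benjamini-Hochberg over all genes tested, with a threshold of 0.05. The 4sU libraries, 1 per time, were compared as a log2 ratio against 2-fold, without a test. The scripts were checked on simulated data. Tables and figures were made with Python 3.11.15, pandas 2.3.3, NumPy 2.4.6 and Matplotlib 3.10.9.

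Named were the 10 genes, Myc, up to 3 called genes of each other list with the smallest adjusted p per comparison, and the 2 genes most correlated with each of 5 members (Cdk4 in B cells only) among genes with a mean of at least 5 FPKM. Alternatives were other pseudocounts, filters, scalings, weights and sample sets, a block for the replicate number, and fits lacking 1 library. The labels state no pairing, but fibroblast libraries of the same number deviated together in all 4 pairs of 0 h with 4 h (correlation 0.117 to 0.507) and with 16 h (0.140 to 0.540), and in 3 of 4 with 8 h, so a block on the number is given beside the counts it moves. The Rpph1 split, the lists without tumour library 3 and the fit without fibroblast libraries numbered 4 were added after seeing the data. Depth is known only as a denominator estimated from the spacing of low values (0.802 to 1.44 M reads in B cells), so no counting intervals are given. Exon lengths and overlaps came from GRCm38, not from the build of the files.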

Additional observations from a re-analysis of the deposited data

Results flagged for a closer look

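Of 60 groups of 4 libraries checked for a library far from the others, 4 held one, and chance alone gives about 1 in 20. Cdk6 was at 129.6 FPKM in wild-type spleen library 6, against 219.6 to 227.3 in the other 3. Cdk2 was at 34.4 FPKM in 0 h fibroblast library 2, against 27.5 to 28.6 in the others. At 4 h, library 3 held Cdk2 at 30.3 FPKM, against 22.4 to 23.6. Cdk4 was at 122.8 FPKM in 0 h fibroblast library 1, against 102.1 to 103.9 in the others, all near the ceiling of those files.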

How the results depend on the processing

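Of 1300 values of the 10 genes under alternatives, 1163 kept direction and side of the threshold, 38 lost a call, 35 gained one and 64 changed sign. Only 15 results of the 10 genes were called in the main fits, so only alternatives of those 15 could lose a call. The causes of these changes were not tested, except that the B cell fits with a replicate block leave 1 residual degree of freedom.

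Transgenic against wild-type spleen: 1 gene was lower with quantile normalization, array weights or low Rpph1. All genes called numbered 6659 with array weights, 2324 with all 3 B cell groups, 840 with the replicate block and 1426 with high Rpph1, where Ccnd3 (-0.045) and Cdk6 (-0.051) turned. Leaving out 1 library gave 0 to 1 lower genes, 2151 to 5084 calls (5084 without transgenic library 2) and Cdk6 from -0.023 to 0.41. Tumour against wild type: the replicate block gave 0 higher, 0 lower and 0 genes called. Array weights turned Ccnd3 (0.20) and Cdk2 (0.096). Leaving out 1 library moved Ccnd3 from -0.51 to 0.35 and Cdk2 from -0.54 to 0.36. Tumour against transgenic spleen: 2 genes were lower with array weights (2360 calls, Ccnd3 0.061, Ccne1 0.31) and with all 3 groups (2127 calls). The replicate block gave 0, 0 and 0, with Ccne1 at 0.068 and Cdk4 at 0.010. Leaving out 1 library gave 0 to 1 higher, 0 to 1 lower, 297 to 920 calls, Ccne1 from -0.51 to 0.12, Ccne2 from -0.016 to 0.41, Cdk4 from -0.45 to 0.049 and Cdk6 from -0.040 to 0.43.

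Fibroblasts at 4 h: calls over all genes numbered 1449 with median ratio scaling (Cdk4 0.0093), 1763 with quantile normalization (1 of the 10 higher, 1 lower), 2547 with array weights (1 and 1), 1146 with the 2 groups alone, 1105 with the replicate block and 1276 without libraries numbered 4. At 8 h they were 1033 with median ratio scaling (1 and 1, Ccnd1 0.087, Cdk4 0.020), 1165 with quantile normalization (1 and 2, Ccnd1 0.026), 1825 with array weights (4 and 2, Ccnd1 0.11), 509 with the 2 groups alone (2 lower), 729 with the replicate block (1 lower) and 433 without libraries numbered 4 (Ccnd1 0.11), and a pseudocount of 1 gave 1 lower. At 16 h they were 1914 with median ratio scaling (2 higher, Ccnd1 0.16, Cdk4 0.19), 2052 with quantile normalization (2 higher, Ccnd1 0.083, Cdk4 0.055) and 2071 with the replicate block. Array weights gave 1 higher and 2 lower (Ccnd1 0.11, Cdk4 0.10), and the fit without libraries numbered 4 gave 1 higher (Ccnd1 0.091, Ccne2 -0.0070, Cdk4 0.017). From 4 to 16 h, Ccnd3, Ccne1, Ccne2 and Cdk2 turned with median ratio scaling (0.11, 0.031, 0.0065 and 0.016), Ccnd3 with quantile normalization (0.13), Ccnd3 and Ccne1 with array weights (0.045 and 0.021), and Ccnd3 without libraries numbered 4 (0.019, 2 genes called).

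Leaving out 1 fibroblast library gave 265 to 773 calls and Cdkn1b from -0.027 to 0.10 at 4 h, and 147 to 230 calls and Ccnd1 from -0.077 to 0.066 at 8 h. At 16 h it gave 0 to 1 lower, 674 to 2065 calls (674 without 16 h library 2, 2065 without 16 h library 1), Ccnd1 from -0.14 to 0.060, Ccnd3 from -0.032 to 0.24, Ccne2 from -0.032 to 0.13, Cdk4 from -0.10 to 0.10 and Cdk6 from -0.0014 to 0.22. From 4 to 16 h it moved Ccnd2 from -0.052 to 0.090, Ccnd3 from -0.17 to 0.10, Cdk4 from -0.030 to 0.17 and Cdk6 from -0.075 to 0.15.

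Same-numbered fibroblast libraries correlated over 0.1 in 22 of 24 pairs (median 0.21, from 0.0064 to 0.69), against 16 of 72 pairs with different numbers (median -0.076), and 8 of 16 libraries correlated best with their own number. In B cells 3 of 6 same-numbered pairs were over 0.1 (median 0.078, from -0.076 to 0.34). Of the B cell pairs with different numbers, 6 of 34 were (median -0.0081). Whether B cell libraries of the same number share more than the number was not tested. In the fibroblast fits with the replicate block, Cdkn2c at 8 h was the only 1 of the 10 genes whose call changed.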
